A study of Mus musculus with 6 samples.

Results

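Transcripts of the class IIa histone deacetylases and of their MEF2 partners were examined in mouse pro-B cells, an early stage of B cell development in the bone marrow. The 7 genes were taken by name: Hdac4, Hdac5, Hdac7 and Hdac9 for the deacetylases, and Mef2a, Mef2c and Mef2d for the transcription factors. A probe set, the group of short probes that reports a transcript on the array, was counted for a gene if the platform annotation gave it exactly that 1 symbol. This gave 15 probe sets for 6 of the 7 genes, of 17097 genes in all. No probe set carried the symbol Hdac4 alone, and Hdac4 is not analysed here. Where a gene had several, the brightest on average over the 6 arrays gave its main value.

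The arrays compared 3 samples from HDAC7-deficient mice with 3 samples from wild-type mice, each of B220+CD43+IgM- cells sorted from the animals, and the study's title names repression of genes of other lineages as its subject. The mutant mice are called conditional, but the labels name no Cre driver, no deleted exons, no strain, age or sex, and no agent given to either group. All values are the deposited log2 expression values, so a difference of 1 is a factor of 2, and every difference is HDAC7 deficient minus wild type. Nothing in the labels says whether each sample is a single animal or a pool, so the p-values measure the spread between these 6 samples.

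Class IIa deacetylases carry signals from the cytoplasm to genes. In the nucleus their amino-terminal part binds MEF2 factors, and their carboxy-terminal part brings in the HDAC3 and NCoR corepressor complex, so that MEF2 target genes are kept silent. When kinases phosphorylate them, 14-3-3 proteins bind, the deacetylases leave the nucleus and MEF2 is free to activate. HDAC7 is the family member best known from lymphocyte precursors, MEF2C and MEF2D act in B cell development, and Hdac9 is itself a MEF2 target gene in muscle.

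The upstream sequences of the 3 deacetylase genes with values are shown because MEF2 is the DNA-binding partner of these proteins, and 1 of them holds its consensus. Each run is the 250 bases before a RefSeq start site, 5′ to 3′ along the minus strand of GRCm38.p6, and capitals mark a match to the 10-base MEF2 consensus, which reads the same on both strands.
Hdac5, chr11:102230173-102230422: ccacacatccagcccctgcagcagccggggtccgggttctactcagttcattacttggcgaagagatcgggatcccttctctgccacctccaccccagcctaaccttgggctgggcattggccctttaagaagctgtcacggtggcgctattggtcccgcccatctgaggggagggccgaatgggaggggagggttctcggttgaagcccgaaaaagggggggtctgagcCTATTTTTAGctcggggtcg
Hdac7, chr15:97831496-97831745: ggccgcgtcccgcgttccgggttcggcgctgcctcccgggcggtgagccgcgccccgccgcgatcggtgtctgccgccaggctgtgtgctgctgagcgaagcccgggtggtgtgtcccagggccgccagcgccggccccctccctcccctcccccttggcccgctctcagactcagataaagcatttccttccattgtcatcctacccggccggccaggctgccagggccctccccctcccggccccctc
Hdac9, chr12:34917096-34917345: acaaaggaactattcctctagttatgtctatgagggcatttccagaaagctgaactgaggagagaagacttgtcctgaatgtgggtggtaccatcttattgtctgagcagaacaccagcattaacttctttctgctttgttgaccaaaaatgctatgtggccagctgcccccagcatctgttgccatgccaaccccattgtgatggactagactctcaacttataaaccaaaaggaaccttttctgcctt
The match in the Hdac5 window begins 20 bases before the start site, and it was the only match among the 13 windows that the table holds for the 7 genes. Of all 32851 windows of this length, 2.92% hold the consensus. Hdac7 has 4 annotated windows and Hdac9 has 2, of which 1 each is printed. The single Hdac5 window holds 12 CG dinucleotides, the 4 of Hdac7 hold 5, 25, 21 and 6, with 25 in the printed one, and the 2 of Hdac9 hold 2 and 0, with 0 in the printed one, against a median of 6 over all windows. A match is a description of these letters and not a binding site, and the arrays do not tell which start sites were used.

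Wild-type replicate 3 stood apart. Its correlations with the other arrays over all probe sets were 0.70 to 0.82, its interquartile range was 1.72 against 2.27 to 2.93, and the 4143 genes at least as bright as Hdac9 had a median difference of -1.37 there from the mean of the other wild-type arrays. The results for the members are therefore also given without this array. Xist was high on HDAC7-deficient replicates 2 and 3 and on wild-type replicate 3 (8.51 to 11.40) and low on the other 3 arrays (4.87 to 5.38), a division across genotypes that the labels do not give. Of 15 measured B lineage markers, 14 or 15 exceeded the background gauge defined below on the HDAC7-deficient arrays, and 14, 14 and 8 on the wild-type arrays. Their summed level (log2) was 14.19, 13.49 and 13.47 on the HDAC7-deficient arrays and 13.82, 14.01 and 12.91 on the wild-type arrays. Of these 15 genes 11 had a positive difference (median 0.23), and 4 without wild-type replicate 3 (median -0.26). Genes of other blood cells were bright too: all 8 measured neutrophil genes, all 6 NK cell genes and all 5 plasmacytoid dendritic cell genes exceeded the gauge on every array but wild-type replicate 3. The summed level (log2) of the plasmacytoid dendritic cell genes was 12.81 to 13.21 on HDAC7-deficient arrays and 10.51 to 12.85 on wild-type arrays, that of neutrophil genes 13.81 to 14.36 and 13.54 to 14.16, that of NK cell genes 11.85 to 12.23 and 10.03 to 12.19, and that of T cell genes 10.65 to 11.59 and 9.76 to 11.00. The mature B cell genes had a summed level of 9.24 to 9.38 on HDAC7-deficient arrays and of 8.57, 9.05 and 11.67 on wild-type arrays, the last on replicate 3. Of the 4 measured, 1, 3 and 3 exceeded the gauge on the HDAC7-deficient arrays and 1, 1 and 2 on the wild-type arrays. On wild-type replicate 3 these were Ms4a1, at 11.35, and Cd22, at 8.6, while Cr2, at 6.69, lay below it. The macrophage genes had 12.41 to 12.82 on HDAC7-deficient arrays and 12.19 to 12.42 on wild-type arrays, with 6, 10 and 5 of 11 above the gauge on the HDAC7-deficient arrays and 5, 5 and 2 on the wild-type arrays. Of these 11 genes 7 had a positive difference and 9 without wild-type replicate 3. All 5 plasmacytoid dendritic cell genes had one in both fits (median 1.55, and 0.40 without that array). With all arrays and without wild-type replicate 3, it was 6 and 5 of 8 neutrophil genes and 6 and 6 of 7 T cell genes. For NK cell genes it was 5 and 3 of 6, and for mature B cell genes 1 and 3 of 4. Over all genes it was 48.0% and 43.2%. Itgam, an integrin gene of myeloid cells named here after its values were seen, differed by 1.51 ± 0.42 (SE, limma adjusted p = 0.377), or 1.31 without that array, and Mertk, a receptor gene of macrophages that exceeded the gauge on no array, lay at 4.43 to 4.57 in HDAC7-deficient cells and 4.59 to 6.36 in wild-type cells. The part of such cells in the values below was not tested, and in bulk samples fewer cells of a type and less RNA per cell cannot be told apart.

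Which of these genes are expressed was read against a background gauge, the 95th percentile of 44 probe sets for olfactory receptors, genes taken as silent in blood cells. The gauge lay at 5.56 to 5.97 on the HDAC7-deficient arrays and at 6.33, 5.74 and 7.91 on the wild-type arrays, the last being that of replicate 3. All 6 main probe sets exceeded it on every array of the HDAC7-deficient group and on wild-type replicates 1 and 2. On wild-type replicate 3 it was exceeded by Hdac9, with 8.12, and by Mef2d, with 7.97. On the HDAC7-deficient arrays the Hdac5 probe set lay at percentile 93.6 to 94.3 of all probe sets and that of Hdac9 at percentile 78.5 to 85.4. On wild-type replicates 1 and 2 Hdac5 lay at percentiles 92.8 and 93.7 and Hdac9 at 75.3 and 77.8. Hdac5 and Hdac9 are the measured relatives of Hdac7. By main probe set, Hdac9 was thus above the gauge on every array and Hdac5 on every array but wild-type replicate 3. Probe sets differ in how strongly they bind their target, so no level of one gene is set against that of another, and whether a relative takes over a task of HDAC7 cannot be read from transcript levels.

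Hdac7, the targeted gene, was measured by a pair of probe sets. The brighter one (1420813_PM_at) read 9.95, 9.54 and 9.27 on the HDAC7-deficient arrays, against 9.06, 9.48 and 7.31 on the wild-type arrays. The groups overlapped, since wild-type replicate 2 lay above HDAC7-deficient replicate 3, and HDAC7-deficient replicate 1 was the highest of the 6. The difference was 0.97 ± 0.59 (SE, limma adjusted p = 0.399) and 0.31 ± 0.23 without wild-type replicate 3 (limma adjusted p = 0.555), with a 95% interval of -0.22 to 0.85. The other probe set (1420812_PM_at) read 9.31, 9.08 and 8.68 in HDAC7-deficient cells and 8.40, 8.93 and 7.11 in wild-type cells, in the same order of arrays. A loss of Hdac7 signal was thus not seen on the arrays labelled HDAC7 deficient. Whether either probe set lies in the deleted part is not given in the sources used here, so the signal does not check the labels, and each direction below is that of the labelled groups.

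**Figure D1:**
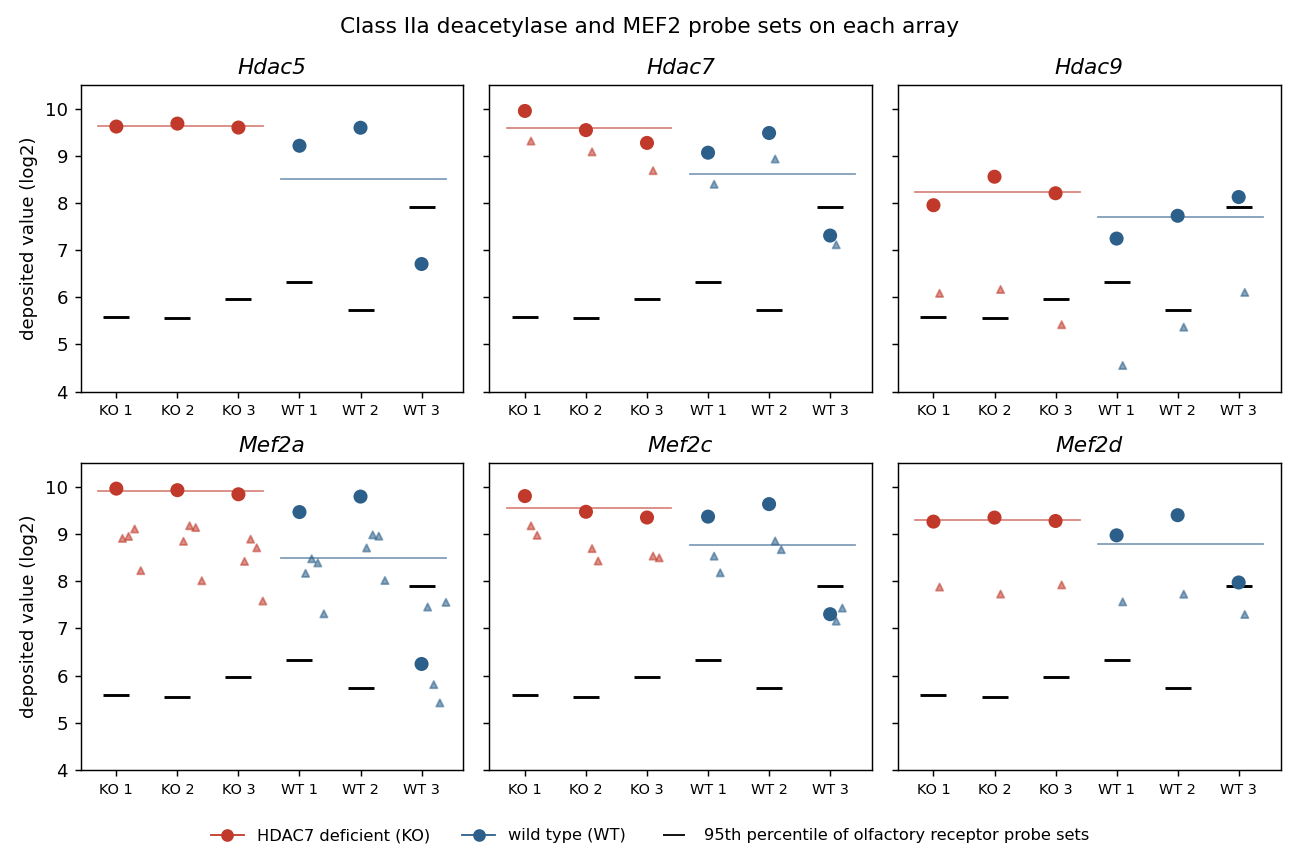
Deposited log2 values of every probe set on each array, by gene. Large circles are the main probe set and small triangles the others, red for HDAC7 deficient (KO) and blue for wild type (WT), coloured lines are group means of the main probe set (n = 3 each), and black bars are the 95th percentile of 44 olfactory receptor probe sets. Wild-type replicate 3 is low for every main probe set but that of Hdac9.

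Hdac5, whose protein also shuttles between nucleus and cytoplasm, read 9.62, 9.68 and 9.60 on the HDAC7-deficient arrays and 9.21, 9.59 and 6.71 on the wild-type arrays. The HDAC7-deficient values lay within a narrow band, just above wild-type replicate 2, and the groups did not overlap. The difference was 1.13 ± 0.74 (SE, limma adjusted p = 0.410). Without wild-type replicate 3 it was 0.23 ± 0.17 (limma adjusted p = 0.547), with a 95% interval of -0.15 to 0.61.

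Hdac9, which also gives rise to a short form without the deacetylase domain, ran differently across the wild-type arrays. Its main probe set (1421306_PM_a_at) read 7.95, 8.55 and 8.20 on the HDAC7-deficient arrays, against 7.24, 7.73 and 8.12 on the wild-type arrays. Wild-type replicate 3 was here the highest of its group and overlapped the HDAC7-deficient values. The difference was 0.54 ± 0.34 with all arrays (SE, limma adjusted p = 0.403) and -0.01 after quantile normalization of the arrays. Without wild-type replicate 3 it was 0.75 ± 0.27 (limma adjusted p = 0.307, unadjusted p = 0.0224), a fold of 1.68 with all 3 HDAC7-deficient arrays above both remaining wild-type arrays. The dimmer probe set (1434572_PM_at) read 6.08, 6.16 and 5.42 in HDAC7-deficient cells and 4.55, 5.37 and 6.10 in wild-type cells. It passed the gauge on 2 of the 6 arrays, HDAC7-deficient replicates 1 and 2. Its difference without wild-type replicate 3 was 0.93 ± 0.31 (SE, limma adjusted p = 0.249 over probe sets). Both remaining wild-type arrays lay below the gauge, so this difference is partly one from background values. Among the Xist-low arrays, HDAC7-deficient replicate 1 exceeded the mean of wild-type replicates 1 and 2 by 0.47 and 1.12 for the brighter and the dimmer probe set. Among the Xist-high arrays the mean of HDAC7-deficient replicates 2 and 3 differed from wild-type replicate 3 by 0.26 and -0.31. On that wild-type array the brighter probe set lay 0.22 above the gauge and the dimmer one below it.

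Mef2a had 5 probe sets, the most of any member. The brightest (1427186_PM_a_at) read 9.96, 9.93 and 9.84 on the HDAC7-deficient arrays and 9.47, 9.79 and 6.25 on the wild-type arrays. As for Hdac5 the groups did not overlap, and the gap to wild-type replicate 2 was small. The difference was 1.41 ± 0.90 (SE, limma adjusted p = 0.405), and 0.28 ± 0.15 without wild-type replicate 3 (limma adjusted p = 0.431). The 5 probe sets disagreed with all arrays in the fit, with differences from 0.31 to 1.41, but without that array they lay between 0.28 and 0.31. The disagreement came with that array, on which the probe sets lay from -3.38 to -0.11 relative to the mean of wild-type replicates 1 and 2.

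Mef2c, the MEF2 gene of lymphoid and myeloid precursors, had the smallest difference of the members once that array was set aside. Its main probe set (1451506_PM_at) read 9.80, 9.47 and 9.35 in HDAC7-deficient cells, against 9.37, 9.63 and 7.30 in wild-type cells. Wild-type replicate 2 lay above HDAC7-deficient replicates 2 and 3. The difference was 0.77 ± 0.63 (SE, limma adjusted p = 0.458) and 0.04 ± 0.19 without wild-type replicate 3 (limma adjusted p = 0.942), with a 95% interval of -0.39 to 0.47. The other 2 probe sets differed by 0.54 and 0.62 with all arrays and by 0.21 and 0.11 without wild-type replicate 3.

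Mef2d, a MEF2 factor found in most tissues, read 9.26, 9.35 and 9.28 on the HDAC7-deficient arrays and 8.97, 9.40 and 7.97 on the wild-type arrays (1421388_PM_at). The highest value of all was that of wild-type replicate 2, so the groups overlapped. The difference was 0.51 ± 0.42 (SE, limma adjusted p = 0.458) and 0.11 ± 0.18 without wild-type replicate 3 (limma adjusted p = 0.811). The dimmer probe set (1434487_PM_at) read 7.88, 7.73 and 7.92 on the HDAC7-deficient arrays and 7.56, 7.72 and 7.30 on the wild-type arrays, and there the groups did not overlap, by a margin under 0.01 at wild-type replicate 2. Mef2b, the remaining MEF2 family gene, read 5.66, 5.70 and 5.38 in HDAC7-deficient cells and 5.77, 5.89 and 5.97 in wild-type cells. It was below the gauge on HDAC7-deficient replicate 3 and on wild-type replicates 1 and 3, and just above it on the other 3 arrays, so its difference of -0.30 ± 0.18 (SE, limma adjusted p = 0.395; -0.25 without wild-type replicate 3) is one between values at or near background. The groups did not overlap, as for 16.8% of all genes that lay lower in the HDAC7-deficient group.

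**Figure D2:**
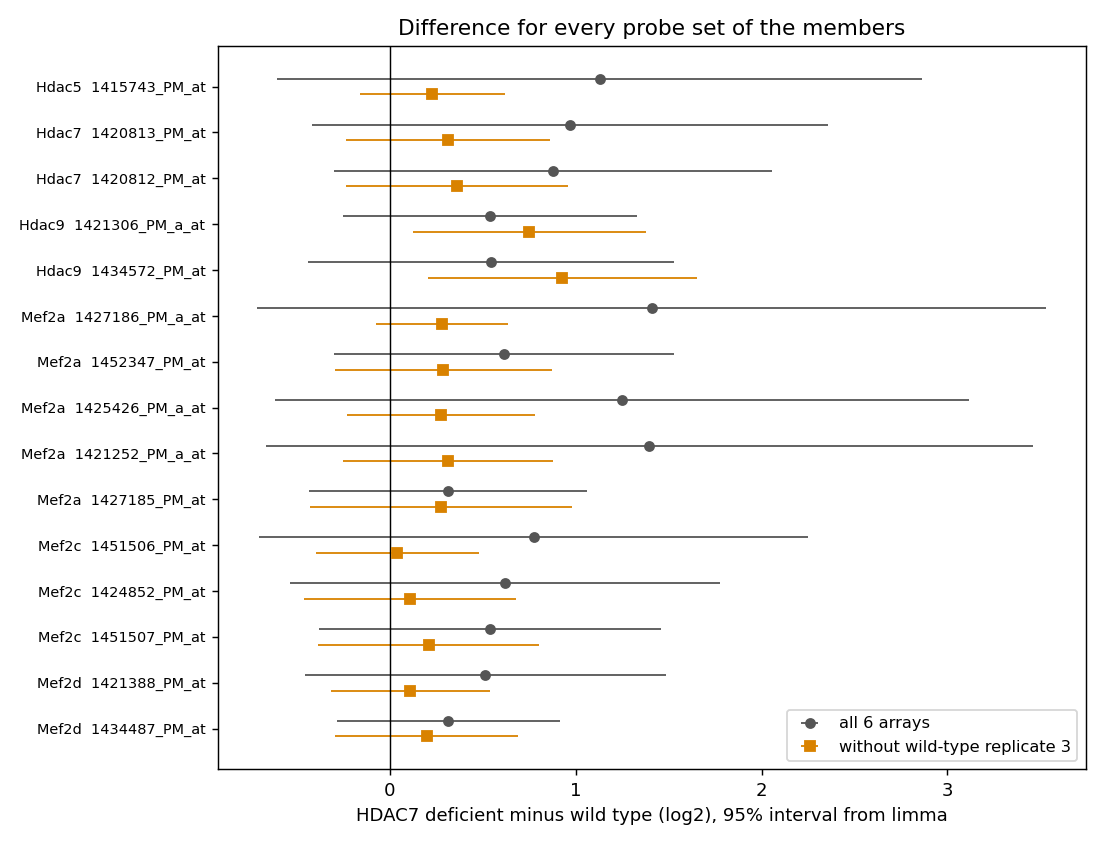
Difference of HDAC7 deficient minus wild type (log2, horizontal axis) for each of the 15 probe sets, with 95% intervals from limma, using all 6 arrays (grey circles) and without wild-type replicate 3 (orange squares). All 15 lie above 0 in both fits, and without that array the interval excludes 0 for the 2 probe sets of Hdac9, before any adjustment for the number of probe sets. The dimmer of these (1434572_PM_at) exceeded the background gauge on 2 of the 6 arrays only, both HDAC7 deficient.

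Read together, none of the 6 genes passed an adjusted p of 0.05, as was true of all genes (0%, with or without wild-type replicate 3, in limma). At an unadjusted p under 0.05 there were 0 of 6 with all arrays, where 12.7% of all genes passed in either direction. Without wild-type replicate 3 there was 1 of 6, Hdac9, where 14% of all genes passed in either direction and 5.19% as higher. The groups did not overlap for Hdac5 and Mef2a, 2 of 6, against 9.45% of all genes that were higher in this way. Without wild-type replicate 3 they did not overlap for Hdac5, Hdac9 and Mef2a, 3 of 6 against 11.8%. Over probe sets the counts were 3 of 15 against 11.5%, and 5 of 15 against 16.2% without that array. These shares cover every brightness, and none was taken over bright genes alone, among which positive differences were more frequent, as given below. Weighting the arrays changed the calls at an adjusted p under 0.05. Then 5 of 6 members passed, all but Mef2c, as did 63.9% of all genes, with almost the whole weight on wild-type replicate 1. An exact permutation test of a single gene cannot give a p below 0.1 with 3 arrays in each group.

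All 6 genes had a positive difference in both fits, with a median of 0.87, or 0.26 without wild-type replicate 3. After quantile normalization this no longer held for Hdac9 with all arrays (-0.0103) or for Mef2c without that array (-0.0496). Brightness matters for reading this: the 4143 genes at least as bright as Hdac9 had a median difference of 0.56 with 89.6% above 0, and of 0.06 with 59.4% above 0 without wild-type replicate 3, while all genes had a median of -0.03 and -0.05. Wild-type replicate 1 was the lowest of the 5 arrays other than replicate 3 of its group for 14 of the 15 probe sets, as it was for 30.5% of all probe sets and for 50.1% of the 7629 at least as bright as the main one of Hdac9. The 15 probe sets are repeated readings of 6 genes on the same arrays, so they are not independent. By main probe set it was the lowest for 5 of the 6 genes, against 29.7% of all genes. Within the Xist-low arrays, HDAC7-deficient replicate 1 lay above the mean of wild-type replicates 1 and 2 for all 15 probe sets, by 0.68 for the main probe set of Hdac7, 0.30 for Mef2c and 0.08 for Mef2d. The same held for 49.1% of all probe sets and for 72.6% of those bright ones. HDAC7-deficient replicate 1 was the highest of the 6 arrays for 8 of the 15, against 20.2% of all probe sets and 32.3% of the bright ones.

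The machinery around these proteins was read from lists of genes chosen by function. No gene of these lists passed an adjusted p of 0.05 in limma, and at an unadjusted p under 0.05 there was 1, of the 19 in the list of kinases, against 12.7% of all genes. Without wild-type replicate 3 there were 1 of 19 kinase genes, 1 of 7 phosphatase genes and 2 of 4 nuclear transport genes at that level, against 14% of all genes. Counts of positive differences in these lists are to be read beside the 48.0% of all genes and 89.6% of the bright genes that had one, or 43.2% and 59.4% without that array. Of 19 genes of kinases that phosphorylate class IIa deacetylases or switch on those that do, 12 had a positive difference (median 0.50), and 11 without wild-type replicate 3 (median 0.09). Camk2a, which encodes a calmodulin-dependent kinase of neurons, read 6.16, 6.12 and 6.56 in HDAC7-deficient cells and 7.19, 6.61 and 7.84 in wild-type cells. The difference was -0.93 ± 0.35 (SE, limma adjusted p = 0.377), or -0.62 without wild-type replicate 3, the array on which Camk2a lay below the gauge. Camk4, a calmodulin-dependent kinase gene of neurons and lymphocytes, was above the gauge on no array, and its difference of -0.84 ± 0.37 (-0.46 without that array) is one between background values. Sik2, a salt-inducible kinase, read 6.79, 6.71 and 6.79 in HDAC7-deficient cells and 6.13, 6.56 and 6.02 in wild-type cells. The difference was 0.53 ± 0.23, or 0.42 without wild-type replicate 3. On wild-type replicates 1 and 3 Sik2 lay below the gauge, so this difference is partly one from background values.

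The 7 genes of 14-3-3 proteins, which hold the phosphorylated deacetylases in the cytoplasm, were bright, with medians of 10.83 to 10.93 on the HDAC7-deficient arrays and 10.08 to 11.00 on the wild-type arrays. Their median difference was 0.10, and -0.09 without wild-type replicate 3, and Ywhaz, Ywhag and Ywhah then differed by -0.02, -0.09 and -0.21. Among 7 phosphatase genes, 6 had a positive difference (median 0.47), and 5 without that array (median 0.07). Ppp3r1, the calcineurin regulatory subunit gene, had 1.41 ± 0.81, Ppp2ca 0.50 ± 0.30 and Ppp2r1a 0.62 ± 0.54, and without wild-type replicate 3 the 3 values were 0.41, 0.35 and 0.02. Of 4 nuclear transport genes 1 had a positive difference, the export receptor gene Xpo1 with 0.76 ± 0.46, while the importin genes Kpna2 and Kpnb1 had -0.32 ± 0.33 and -0.21 ± 0.26. Without that array the 3 values were 0.38, -0.42 and -0.21.

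Of 9 measured genes of corepressors that bind class IIa deacetylases, 8 had a positive difference (median 0.35), and 4 without wild-type replicate 3 (median -0.01). Gps2, a subunit of the NCoR complex, had 0.56 ± 0.39, and Ctbp1 and Ctbp2, which bind the amino-terminal part of the deacetylases, had 1.08 ± 0.96 and 0.36 ± 0.28. Without that array the 3 values were 0.19, -0.11 and 0.20. Hdac3 and Ncor1 are not analysed here. Of 12 genes of MEF2 partners and regulators 10 had a positive difference (median 0.40), and 8 without that array (median 0.19), with Map2k5, which feeds the ERK5 kinase that activates MEF2, at 1.88 ± 1.09 and the calcium-responsive factor Nfatc1 at 1.08 ± 0.64, or 0.51 and 0.34 without it.

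The genes whose pattern over the 6 arrays was most like that of Hdac7 were found by the root mean square difference between log2 profiles, each centred on its own mean. They were Polr3gl, Rchy1, Tmem106b, Ist1 and Tmx2, at 0.05 to 0.07. In all, 85 genes lay within 0.15 of Hdac7, and Mef2c, at 0.148, ranked 81 of all genes. The nearest to Mef2c were Cdk7, Bcap31, Slc39a6, Ddx42 and Hnrnpa0, at 0.03 to 0.05. Hdac9 was the member least like Hdac7, at 0.951 (rank 9308), and the least like Mef2c, at 0.996 (rank 10131). The low value of wild-type replicate 3 weighs heavily in this measure: without it the 5 genes nearest to Hdac7 ranked between 3 and 84, Mef2c ranked 1254 at 0.16, and Hdac9 ranked 11484 at 0.42.

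**Figure D3:**
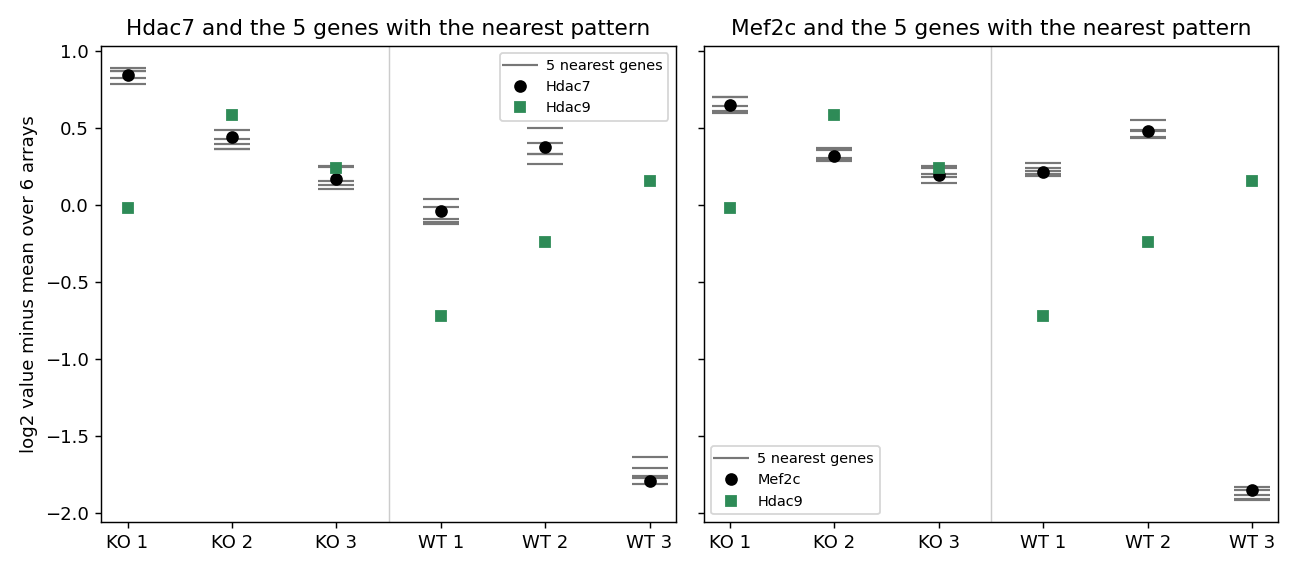
Log2 values minus each gene's own mean over the 6 arrays (vertical axis) for Hdac7 (left, black) and Mef2c (right, black), with the 5 genes of nearest pattern (grey bars) and Hdac9 (green squares), on HDAC7-deficient (KO) and wild-type (WT) arrays. The black and grey values fall together on wild-type replicate 3, where Hdac9 does not.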

How the data were processed

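RNA amplified from the whole transcriptome was hybridised to Affymetrix perfect-match arrays, per the labels' protocols. The authors deposited a table of log2 values by probe set and array. Their normalization is not given in the sources used here. The scale follows from the range of the table. Of 45141 probe sets 104 controls were left out. Of the other 45037, the platform annotation gave 28898 a single symbol, 551 several and 15588 none, and 28689 symbols were updated by Entrez number through RefSeq (GRCm38.p6), which also supplied the upstream sequences.

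Groups were compared with limma 3.58.1 (R 4.3.3) on 1 probe set per gene, with an intensity trend in the variances, two-sided tests and Benjamini-Hochberg adjustment over all 17097 genes. Secondary probe sets were fitted over all 45037. Adjusted p-values are limma's, and ± is its standard error. Dim genes were not filtered. The number of arrays limits the precision. The fit was also run on simulated data in which each gene had the same spread on every array. Such data lack an array that stands apart, so that run does not show how the fit handles wild-type replicate 3. The genes, lists, naming rule and alternatives were chosen with earlier results of these data known, except 3 alternatives added later. From each list of the deacetylase and MEF2 machinery the rule named the 3 genes with the smallest p, plus Mef2b. Plots were made with matplotlib 3.10.9.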

Additional observations from a re-analysis of the deposited data

How the results depend on the processing

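Leaving out 1 array at a time, the difference of Hdac7 ran from 0.31 (without wild-type replicate 3) to 1.40 (without wild-type replicate 2), that of Hdac9 from 0.31 (without wild-type replicate 1) to 0.75 (without wild-type replicate 3) and that of Mef2c from 0.04 (without wild-type replicate 3) to 1.21 (without wild-type replicate 2), with no gene passing. The counts at an unadjusted p under 0.05 ran from 626 genes (without HDAC7-deficient replicate 2) to 5801 (without wild-type replicate 2), with 2399 without wild-type replicate 3, and from 0 to 1 members. Members without overlap numbered 2 to 4, with 4 when wild-type replicate 2 was left out. On wild-type replicate 3 signal over background was low for every main probe set: those of Hdac9 and Mef2d lay 0.22 and 0.07 above the gauge and the other 4 below it, which limits what that array can show. Hdac9 had -0.0103 after quantile normalization, which gave 1417 genes at that level and 1 member without overlap, and the cause was not tested. Averaging probe sets also left 1 member without overlap, and leaving out the dimmest 50% of genes gave 776 genes at that level. The labels do not say whether the replicate numbers pair the samples. Deviations of same-numbered arrays from their group means correlated at 0.10, 0.21 and 0.48, the first just under 0.1. HDAC7-deficient replicates 2 and 3 correlated best with the wild-type array of their own number, but replicate 1 with wild-type replicate 2 (0.36). Deviations from a mean of 3 arrays sum to 0 within each group, so these correlations cannot decide whether the samples are paired. With the replicate block 1 gene passed and 3515 reached an unadjusted p under 0.05, with 0 members in either. Blocking on the Xist division gave 7288 genes and 4 members at that level, with none passing. With that block and wild-type replicate 3 left out, the estimate was HDAC7-deficient replicate 1 minus the mean of wild-type replicates 1 and 2 (0.68 for Hdac7).

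Array weights changed the calls. The estimation stopped before convergence with almost the whole weight on wild-type replicate 1. With these weights 10932 genes passed (11565 at an unadjusted p under 0.05), and so did 5 members: Hdac5 with 0.44, Hdac7 with 0.49, Hdac9 with 1.16, Mef2a with 0.45 and Mef2d with 0.35. The gene by gene method, added after seeing the data, gave weights of 8.68 to wild-type replicate 1 and 0.07 to wild-type replicate 3. By this method 8452 genes passed (9614 at an unadjusted p under 0.05), with 5 members at that level and 3 passing: Hdac5 with 0.45, Hdac7 with 0.48 and Hdac9 with 1.14. Weights without wild-type replicate 3, also added, gave 124 genes passing (4086 at an unadjusted p under 0.05), with 0 members passing, Hdac9 at 0.997 as the 1 member at an unadjusted p under 0.05, and Mef2c at -0.0185. Quantile normalization without that array, likewise added, gave Hdac9 0.61 as the 1 member at that level, and Mef2c -0.0496. Median centring, other variance models and leaving out the dimmest 25% of genes changed no direction and no call of a member.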
